A study of Mus musculus with 13 samples.

Results

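The enzymes of glycolysis split glucose into pyruvate, and lactate dehydrogenase then turns pyruvate into lactate. The 10 genes described here encode enzymes of this route in the order Hk2, Gpi1, Aldoa, Tpi1, Gapdh, Pgk1, Pgam1, Eno1, Pkm, and Ldha. They were chosen by name, as the genes that carry these symbols in both deposited tables of TPM, a measure of transcript abundance per length that sums to 1000000 in each library. All 10 were found among the 24972 genes of each table. The rule uses no measured value. Phosphofructokinase, the step between Gpi1 and Aldoa, has no gene among the 10, and its 3 genes are given with the isoenzymes further on.

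Common lymphoid progenitors (CLPs), bone marrow cells that give rise to B, NK, and T lineage progenitors, were sorted as DAPI-/Lin-/Sca1Lo/cKitLo/CD127+/CD135+ cells from adult C57BL/6 mice aged 6 to 12 weeks. RNA was measured in 5 WT libraries, 5 libraries of Notch1+/- mice, which have 1 functional allele of Notch1, and 3 libraries of Notch1+/ΔTAD mice, in which 1 allele of Notch1 lacks the transactivation domain. The alleles are germline, so all cells of the mice carry them, and no group received a treatment. The design set both mutants against WT, to tell loss of 1 allele from interference by the truncated protein, and the glycolytic genes were compared across the same groups. Libraries are named by genotype and by the number in their label.

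Glycolysis supplies ATP and carbon for biosynthesis, and lymphoid cells are known to raise it when they proliferate. Hexokinase commits glucose to the cell, pyruvate kinase makes the last ATP of the route, and lactate dehydrogenase restores the NAD+ that glyceraldehyde-3-phosphate dehydrogenase needs. Many genes of the route are known targets of the hypoxia factor HIF-1 and of MYC, whose binding sites share the letters ACGTG. Because its transcript is abundant in most cells, Gapdh is widely used as a reference gene, and the study named it as 1 of its references for qRT-PCR.

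Because the route is known for HIF-1 and MYC control, the promoters of the members were searched. Those of Ldha, the member with the smallest p-value, and of Pgk1, which like Ldha was listed at 0 in Notch1+/- libraries 4, 5, and 6, are shown. Windows of 250 bases before the RefSeq start sites (GRCm38.p6) were used, and the 10 genes had 16 such windows. The letters ACGTG, on either strand, were in 7 of the 16 windows and in 16.6% of all 32851 windows of the same length. Those 7 windows belonged to Ldha, Pkm, Pgk1, Aldoa, Pgam1, and Hk2, and 2 of them, of Aldoa, overlap and hold the same site. The windows of Gapdh, Eno1, Tpi1, and Gpi1 held no ACGTG. Eno1 was also at 0 in Notch1+/- libraries 4, 5, and 6, and was at 0 in 11 of the 13 libraries. The longer CACGTG, the E-box, which contains ACGTG on both strands, was in 1 of the 16 windows, that of Ldha, and in 6.02% of all windows. The core of the site bound by RBPj, the DNA-binding partner of Notch, TGGGAA on either strand, was in 4 of the 16 windows, those of Gapdh, Pgk1, and Eno1, of which the 2 of Eno1 overlap and hold the same site, and in 21.6% of all. A match of these letters is a description of the window and was not set against binding data. The windows of all genes were not matched to those of the members for base composition, and the shares were not tested. Ldha has 2 windows, and the other 1 held neither ACGTG nor CACGTG. The Ldha window shown is chr7:46845554-46845803 and the Pgk1 window is chrX:106186850-106187099, both on the plus strand and both from RefSeq, with ACGTG on either strand in capitals.
Ldha: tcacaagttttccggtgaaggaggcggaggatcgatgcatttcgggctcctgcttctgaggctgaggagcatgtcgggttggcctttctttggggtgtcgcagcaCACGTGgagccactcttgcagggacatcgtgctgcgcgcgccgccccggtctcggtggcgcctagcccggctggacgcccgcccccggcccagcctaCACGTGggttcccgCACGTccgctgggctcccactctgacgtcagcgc
Pgk1: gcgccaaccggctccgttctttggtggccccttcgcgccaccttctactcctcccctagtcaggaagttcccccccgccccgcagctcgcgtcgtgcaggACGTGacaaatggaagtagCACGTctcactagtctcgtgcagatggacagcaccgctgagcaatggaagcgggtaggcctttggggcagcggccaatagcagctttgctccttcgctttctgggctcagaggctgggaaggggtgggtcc

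Each library listed between 3264 and 6326 genes above 0 TPM. The 3 Notch1+/ΔTAD libraries listed 4706 to 5764, more than any of the 5 WT libraries, which listed 3744 to 4614, while the Notch1+/- libraries spanned 3264 to 6326. TPM keep no read depth, so a gene listed at 0 may have been missed. Among the genes of the sort, Flt3 (CD135) was at 1 TPM or more in all 13 libraries, Il7r (CD127) was above 0 in 12, Kit in 8, and Ly6a (Sca1) in 5. With Dntt and Ly6d, at 1 TPM or more in all 13, and Rag1, Rag2, and Notch1, above 0 in 11, 6, and 12, these 9 CLP markers summed to 5525 to 9295 TPM in WT, 2544 to 10635 in Notch1+/-, and 5791 to 6281 in Notch1+/ΔTAD, of which Dntt made up 2095 to 9616 TPM. Of 8 erythroid markers 6 were at 0 in all libraries, as were 4 of 7 T and NK markers, Cd3e and Cd3g among them, while the 7 summed to 0 to 1122 TPM in WT, 0 to 129 in Notch1+/-, and 0 to 262 in Notch1+/ΔTAD, with Nkg7 at 1122 TPM in WT library 10. B lineage markers summed to 6.00 to 1084, 14.5 to 1839, and 79.5 to 1715 TPM, and myeloid markers to 436 to 2067, 212 to 1257, and 272 to 1773 TPM, in the same order of genotypes. The targeted gene, Notch1, was listed at 0 to 25.7 TPM in WT, 9.27 to 78.5 in Notch1+/-, and 0.893 to 35.0 in Notch1+/ΔTAD. It did not separate the genotypes, and since a 3′ tag may lie outside the altered part of an allele, it was no check on the labels.

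Together the 10 genes made up little of the TPM. Their TPM summed to 992, 799.8, 1298, 1347, and 287 in WT libraries 1, 2, 3, 10, and 11, to 709.99, 767, 775, 1109, and 1312 in Notch1+/- libraries 4, 5, 6, 12, and 13, and to 590.4, 1355, and 1014 in Notch1+/ΔTAD libraries 7, 9, and 14. This was 0.0287% to 0.136% of all TPM, and the 3 genotypes overlapped over most of that range, with the lowest sum in WT library 11. In such bulk samples, fewer cells that express a gene and less of its RNA per cell cannot be told apart. The sum was made of different genes in different libraries. The member with the highest TPM was Tpi1, Aldoa, Pgk1, Ldha, and Ldha in the 5 WT libraries, Gapdh, Pgam1, Tpi1, Pgk1, and Aldoa in the 5 Notch1+/- libraries, and Gpi1, Pgk1, and Pgk1 in the 3 Notch1+/ΔTAD libraries. That top gene held between 29.1% of the sum, in Notch1+/ΔTAD library 14, and 84.03%, where Tpi1 led in Notch1+/- library 6. In all, 7 of the 10 genes led in at least 1 library, and Pkm, Hk2, and Eno1 led in none.

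**Figure D1:**
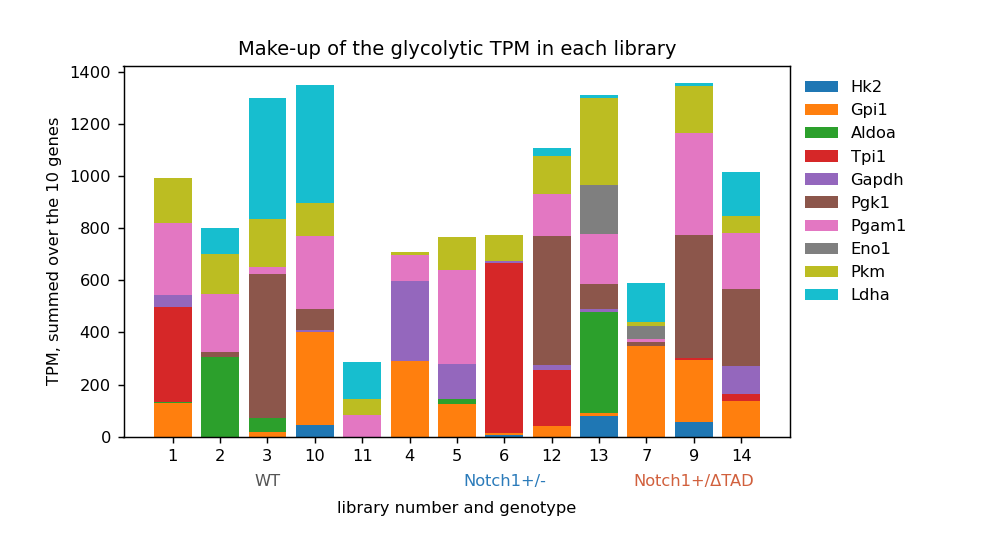
TPM of the 10 glycolytic genes stacked for each library, by genotype, with the y axis in TPM and 1 color per gene. Bars reach from 287 TPM in WT library 11 to 1355 in Notch1+/ΔTAD library 9, and the color that fills most of a bar changes from library to library.

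Most members were at 0 in part of the libraries. Pkm was above 0 in all 13, Pgam1 in 12, Gapdh and Gpi1 in 11, Ldha in 10, Pgk1 in 9, Hk2, Aldoa, and Tpi1 in 6, and Eno1 in 2. WT libraries 1, 2, 3, 10, and 11 listed 9, 6, 6, 7, and 3 of the 10, Notch1+/- libraries 4, 5, 6, 12, and 13 listed 5, 5, 5, 7, and 10, and Notch1+/ΔTAD libraries 7, 9, and 14 listed 8, 8, and 7. The Notch1+/- library that listed all 10, library 13, was also the one with the most genes above 0, 6326, and the part of that number in the result was not tested. Such gaps were common at this level of expression. Of the 3834 genes with a mean TPM in the span of the members, 14.8 to 178, the median gene was above 0 in 8 libraries and 9.02% were above 0 in all, against a median of 9.5 libraries and 1 of 10 genes for the members.

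**Figure D2:**
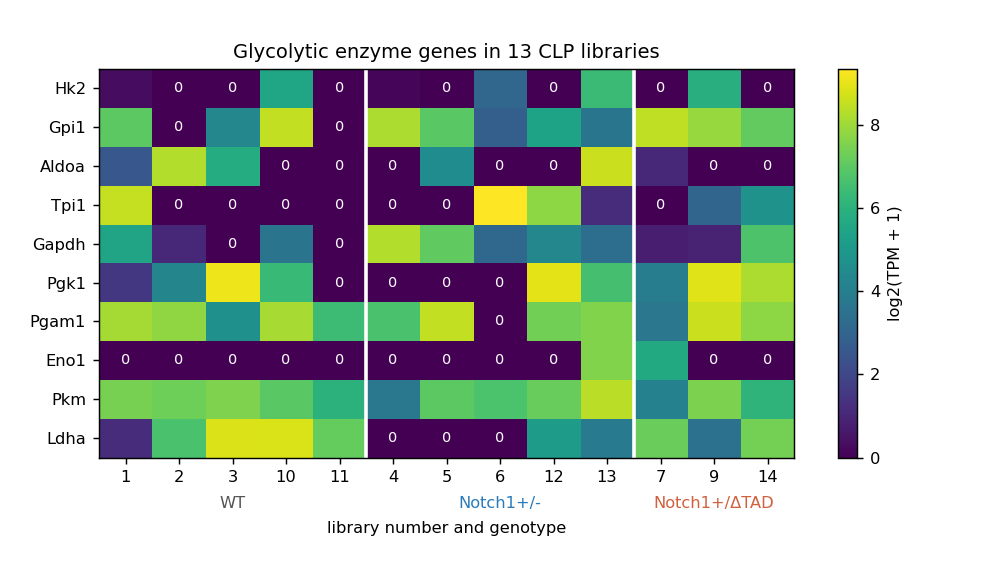
Heat map of the 10 genes in pathway order (rows) against the 13 libraries grouped by genotype (columns), colored by log2(TPM + 1), with values listed at 0 marked. The Pkm row has no 0, and the Eno1 row is above 0 in 2 libraries only.

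The spread between libraries was of the same size as for other genes at this level. The SD of log2(TPM + 1) over all 13 libraries had a median of 2.92 over the members and of 2.83 over the 3834 genes just described. Pkm had the lowest SD of the 10 members, 1.35, and Pgk1 the highest, 3.79. The 7 reference genes at 1 TPM or more in every library, which were picked for that, had a median SD of 0.54.

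Hexokinase, phosphoglucose isomerase, and aldolase open the route. Hk2 (chr6:82725025-82774454, minus strand, GRCm38, GENCODE M21), which phosphorylates glucose, was listed at 0.231, 0, 0, 45.6, and 0 TPM in WT libraries 1, 2, 3, 10, and 11. The Notch1+/- values were 0.122, 0, 7.50, 0, and 81.4 in libraries 4, 5, 6, 12, and 13, and the Notch1+/ΔTAD values were 0, 57.3, and 0 in libraries 7, 9, and 14. Each genotype thus held 1 library above 45 TPM, and Hk2 was below 1 TPM in 9 of the 13 libraries. Genes were tested where enough libraries, at least the number in the smaller group, reached 1 TPM, and Hk2 did so only between the mutants, where the log2 difference of Notch1+/ΔTAD over Notch1+/- was 0.03 (SE 1.89).

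Gpi1 (chr7:34201330-34230336, minus strand), which turns glucose-6-phosphate into fructose-6-phosphate, was listed at 127, 0, 19.0, 354, and 0 TPM in the WT libraries, in the order 1, 2, 3, 10, and 11 that is kept from here on. Values were 291, 124, 6.09, 41.5, and 11.4 in Notch1+/- libraries 4, 5, 6, 12, and 13. In Notch1+/ΔTAD libraries 7, 9, and 14 they were 347, 238, and 136. All 3 Notch1+/ΔTAD libraries were high, each above 4 of the 5 WT libraries, yet WT library 10 was above all 3 and Notch1+/- library 4 above 2 of them, so the groups overlapped. The log2 difference of Notch1+/ΔTAD over WT was 3.85 (SE 1.99, limma adjusted p = 0.952), with a 95% interval of -0.41 to 8.12. It was 1.44 (SE 1.87) for Notch1+/- over WT and 2.41 (SE 1.91) between the mutants. With each library left out in turn, the difference of Notch1+/ΔTAD over WT ran from 2.86 to 4.98, and the smallest limma adjusted p was 0.827.

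Aldoa (chr7:126795234-126800751, minus strand), the aldolase that cuts fructose-1,6-bisphosphate, was listed at 4.87, 304, 54.6, 0, and 0 TPM in WT. The Notch1+/- values were 0, 22.3, 0, 0, and 386 TPM. Among Notch1+/ΔTAD libraries only library 7 was above 0, at 1.11 TPM. The Notch1+/ΔTAD values were thus all low, yet WT and Notch1+/- libraries at 0 lay as low. The log2 difference of Notch1+/ΔTAD was -2.96 (SE 2.04, limma adjusted p = 0.958) from WT and -2.27 (SE 2.27) from Notch1+/-, and that of Notch1+/- from WT was -0.69 (SE 2.11). GENCODE holds another gene model also named Aldoa, and how the authors' counting treated it is not given in the sources used here.

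Tpi1, Gapdh, and Pgk1 follow, at the steps that handle the triose phosphates and make the first ATP. Tpi1 (chr6:124810586-124814296, minus strand), the triose phosphate isomerase, was at 366 TPM in WT library 1 and listed at 0 in the other 4 WT libraries. In Notch1+/- it was at 0, 0, 651, 214, and 1.26 TPM, and in Notch1+/ΔTAD at 0, 7.27, and 27.2 TPM. Notch1+/- libraries thus held both values of 0 and the highest value of any member, 651 TPM. The log2 difference of Notch1+/ΔTAD was 0.92 (SE 2.14) from WT and -1.03 (SE 2.49) from Notch1+/-. Tpi1 was not tested between Notch1+/- and WT, since too few libraries reached 1 TPM.

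Gapdh (chr6:125161715-125166467, minus strand), glyceraldehyde-3-phosphate dehydrogenase, was listed at 43.0, 1.12, 0, 11.0, and 0 TPM in WT. The Notch1+/- libraries had 307, 133, 7.84, 18.9, and 9.40 TPM, and the Notch1+/ΔTAD libraries 0.720, 0.861, and 106 TPM. All 5 Notch1+/- libraries were above 7 TPM, against 2 of 5 WT and 1 of 3 Notch1+/ΔTAD libraries, and the groups overlapped. The log2 difference of Notch1+/- over WT was 3.21 (SE 1.68, limma adjusted p = 0.921), with a 95% interval of -0.37 to 6.78. It was 0.78 (SE 2.00) for Notch1+/ΔTAD over WT and -2.43 (SE 2.01) for Notch1+/ΔTAD over Notch1+/-.

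For a gene used as a reference, Gapdh was low and uneven. Its median over the 13 libraries was 9.40 TPM, rank 2200 among the medians of all genes, and it was 0% to 5.17% of the TPM of Eef1a1, the translation elongation factor that the study also named as a reference. Eef1a1 lay between 2713 and 8949 TPM and Actb, the cytoskeletal actin, between 1051 and 3772 TPM in all libraries. Of 10 other genes often used as references, 7 were at 1 TPM or more in every library, Eef1a1 and Actb among them. The other 3 were Hprt, Sdha, and Tbp. The SD of log2(TPM + 1) over all libraries was 3.39 for Hprt, 3.37 for Sdha, and 2.23 for Tbp, beside 2.81 for Gapdh. Median TPM were 0.788 for Hprt, 147 for Sdha, and 0 for Tbp. The end of the Gapdh transcript is shared with many near-identical copies. Of 226 windows of 75 bases, the read length, in the last 300 bases of Gapdh, 158 (69.9%) also occurred in annotated transcripts of 46 other genes, 44 of them pseudogenes. The shares were 15.0% for Eef1a1, 7.08% for Ppia, and 0% for the other 8 reference genes. Only 1 of the 46 genes is in the TPM tables. How the authors' counting treated reads with several matches is not given in the sources used here, so the level of Gapdh is uncertain, and the part of shared sequence in it was not tested.

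**Figure D3:**
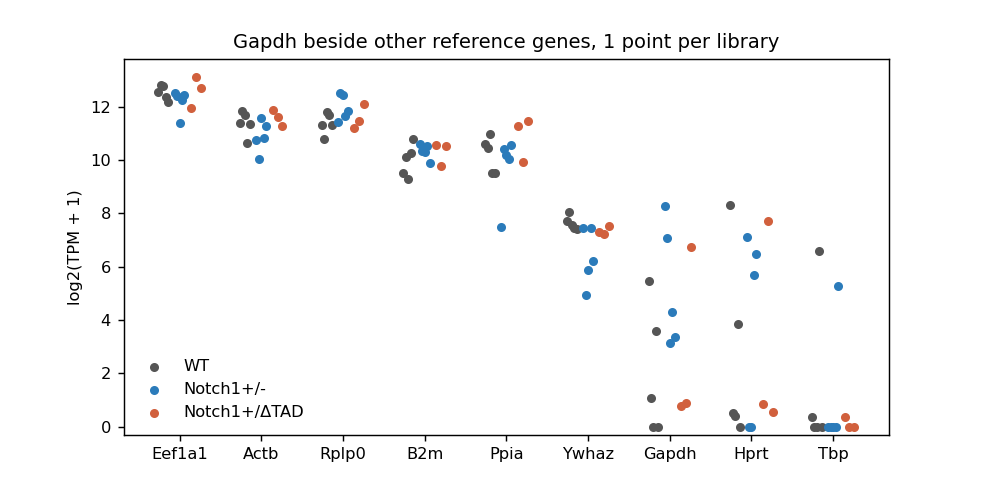
log2(TPM + 1) of Gapdh and 8 other reference genes, with 1 point per library and a color for each genotype. Eef1a1 and Actb form tight groups of points at the top, while Gapdh spans from 0 to the value of 307 TPM in Notch1+/- library 4. Hprt spans from 0 to the value of 320 TPM in WT library 1.

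Pgk1 (chrX:106187100-106203699, plus strand), phosphoglycerate kinase, was listed at 1.87, 18.0, 551, 80.5, and 0 TPM in WT. It was at 0, 0, 0, 495, and 96.3 TPM in Notch1+/- and at 14.6, 471, and 295 TPM in Notch1+/ΔTAD. The highest value of each genotype lay between 471 and 551 TPM, and the 4 values at 0 were in WT library 11 and Notch1+/- libraries 4, 5, and 6. The log2 difference of Notch1+/ΔTAD was 2.77 (SE 2.06) from WT and 3.91 (SE 2.36) from Notch1+/-, with limma adjusted p of 0.972 and 0.997. That of Notch1+/- from WT was -1.13 (SE 2.25).

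The last 4 members turn 3-phosphoglycerate into lactate. Pgam1 (chr19:41911923-41918660, plus strand), phosphoglycerate mutase, had the highest median of the 10, 190.2 TPM. It was at 274, 222, 24.7, 279, and 83.0 TPM in WT, at 99.7, 361, 0, 162, and 190.2 TPM in Notch1+/-, and at 12.0, 391, and 217 TPM in Notch1+/ΔTAD. The lowest library of each genotype was at or under 24.7 TPM and the highest at or above 279 TPM. Log2 differences were -0.33 (SE 1.31) for Notch1+/ΔTAD and -1.005 (SE 1.47) for Notch1+/- from WT, and 0.68 (SE 1.68) between the mutants, each smaller than its SE.

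Pkm (chr9:59656368-59679375, plus strand), the pyruvate kinase gene, was the steadiest member. It was at 173, 154, 187, 124, and 63.7 TPM in WT, at 12.2, 128, 102, 142, and 334 TPM in Notch1+/-, and at 16.1, 180.3, and 66.2 TPM in Notch1+/ΔTAD. Means were 140.5 ± 49.0 TPM (SD, n = 5), 143.6 ± 118 TPM (SD, n = 5), and 87.5 ± 84.2 TPM (SD, n = 3). The lowest and highest libraries, both Notch1+/-, differed 27.3-fold, and the WT libraries lay inside that range. Log2 differences were -1.16 (SE 1.11) for Notch1+/ΔTAD and -0.46 (SE 0.98) for Notch1+/- from WT, and -0.71 (SE 1.25) between the mutants. A gene model on the same strand, Gm49759, overlaps Pkm.

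Eno1 (chr4:150236721-150248879, plus strand), the enolase of most tissues, was at 0 in all 5 WT libraries. It was above 0 in Notch1+/- library 13, at 189 TPM, and in Notch1+/ΔTAD library 7, at 50.1 TPM, and at 0 in the other 4 and the other 2 libraries of those genotypes. It passed the filter in no comparison. Eno1b, an intronless copy of Eno1 that encodes a near-identical enolase, was listed at 231, 38.2, 725, 0.971, and 179 TPM in WT, at 0, 134, 59.1, 15.8, and 0 TPM in Notch1+/-, and at 0, 192, and 82.0 TPM in Notch1+/ΔTAD. The 2 genes were above 0 together in 0 of the 13 libraries. Eno1b alone was above 0 in 10, Eno1 alone in 2, and neither in Notch1+/- library 4. Of the 226 windows of 75 bases at the end of Eno1, 201 (88.9%) also occurred in Eno1b and in no other annotated gene. The other 8 members apart from Gapdh shared none with genes of other names. Gene models that carry a member's own name, such as the other Aldoa, were left out of this search. Reads of the 2 genes therefore could not be told apart over most of this end, and the level of each is uncertain. Their sum was 0.971 to 725 TPM in WT, 0 to 189 in Notch1+/-, and 50.1 to 192 in Notch1+/ΔTAD, and the groups overlapped.

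**Figure D4:**
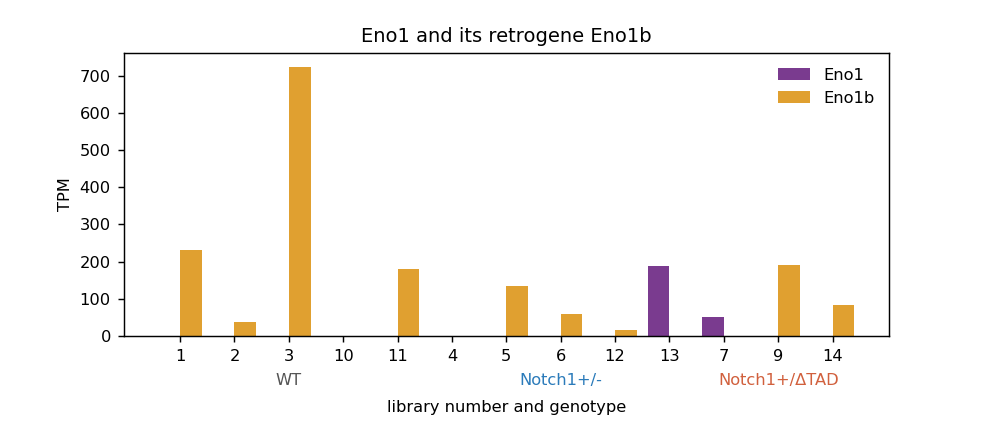
TPM of Eno1 and of its retrogene Eno1b, side by side for each library, by genotype. No library has both bars, Eno1 has a bar in Notch1+/- library 13 (189 TPM) and Notch1+/ΔTAD library 7 (50.1 TPM), and the tallest Eno1b bar is WT library 3 (725 TPM).

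Ldha (chr7:46841475-46855627, plus strand), the lactate dehydrogenase subunit of most proliferating cells, showed the smallest p-value of the members. It was at 1.26, 101, 461, 452, and 140.1 TPM in WT. In Notch1+/- it was at 0, 0, 0, 33.9, and 13.5 TPM, and in Notch1+/ΔTAD at 149, 10.2, and 166 TPM. Of the 5 WT libraries 4 were above every Notch1+/- library, and WT library 1 was below 2 of them. The log2 difference of Notch1+/- from WT was -4.74 (SE 1.81, limma adjusted p = 0.853), rank 71 of the genes tested when ordered by limma's unadjusted p, which was under 0.05 for Ldha. Without WT library 3 or without WT library 10 it was above 0.05. The difference of Notch1+/ΔTAD over Notch1+/- was 4.24 (SE 1.95, limma adjusted p = 0.932), and that of Notch1+/ΔTAD from WT was -0.50 (SE 1.73). Notch1+/- libraries 4, 5, and 6, where Ldha and Pgk1 were at 0, listed 3868, 3522, and 3264 genes above 0, against 4747 and 6326 in libraries 12 and 13. WT library 3, with 3843 genes above 0, listed Ldha at 461 TPM, and the part of the number of genes listed in the result was not tested.

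Across the members as a group, no difference between genotypes passed the threshold, an adjusted p under 0.05 over all genes tested. For Notch1+/ΔTAD against WT, 8 of the 10 passed the filter and 0 of the 8 passed the threshold, against 0% of 4737 genes. At an unadjusted p under 0.05 the count was 0 of 8, against 5.00% of all genes, and 0 of 8 showed groups without overlap, against 3.12%. On the log2(TPM + 1) scale, 4 of the 8 members had higher and 4 lower means in Notch1+/ΔTAD, with a median log2 difference of 0.23 beside 0.47 for all genes tested. The median of the members had no settled direction, since it was -1.17 without Notch1+/ΔTAD library 14 and 1.48 without library 7. The 2 left out were Eno1 and Hk2. The median over all genes was 0.42 after median-ratio scaling and 0.41 when scaled to Eef1a1. It was 0.73 with a pseudocount of 0.1, 0.18 with a pseudocount of 10, and 0.27 with no filter, so its size depended on the treatment of low values. After quantile normalization, which gives every library the same distribution and so cannot show a general shift, it was -0.03. The Notch1+/ΔTAD libraries listed more genes above 0 than the WT libraries, and the part of that in this median was not tested. Relative to the median of 0.47, the members ran from -3.43 for Aldoa to 3.38 for Gpi1.

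For Notch1+/- against WT, 7 of the 10 members passed the filter, without Eno1, Hk2, and Tpi1. The threshold was passed by 0 of 7, against 0% of 3178 genes. Ldha, lower in Notch1+/-, was the 1 of 7 at an unadjusted p under 0.05, against 5.35% of all genes, and 0 of 7 had groups without overlap, against 0.787%. On the log2(TPM + 1) scale, Gapdh and Gpi1 had higher means in Notch1+/- and the other 5 lower, with a median log2 difference of -0.69 beside 0.06 for all genes. With 1 library left out, that median ran from -1.16 to -0.036, and with no filter it was 0.15.

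For Notch1+/ΔTAD against Notch1+/-, fitted in a model of all 13 libraries, 9 of 10 members passed the filter. The threshold was passed by 0 of 9, against 0% of 6281 genes. Ldha, higher in Notch1+/ΔTAD, was the 1 of 9 at an unadjusted p under 0.05, against 5.33% of all genes, and 0 of 9 had groups without overlap, against 3.06%. The median log2 difference was 0.03 over the members and 0.35 over all genes, with 5 members higher and 4 lower. The median of the members was -1.25 without Notch1+/ΔTAD library 9 and 1.07 without Notch1+/- library 13. The comparisons share libraries, so Ldha in this comparison and in that of Notch1+/- against WT rests on the same 5 Notch1+/- values. In limma without the trend term, 15, 2, and 3 genes passed the threshold in the 3 comparisons, and none of them was a member. SEs of the members ran from 0.98 to 2.49 on the log2 scale over the 3 comparisons, and the 95% intervals crossed 0 for every tested member except Ldha in the comparisons with Notch1+/-.

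**Figure D5:**
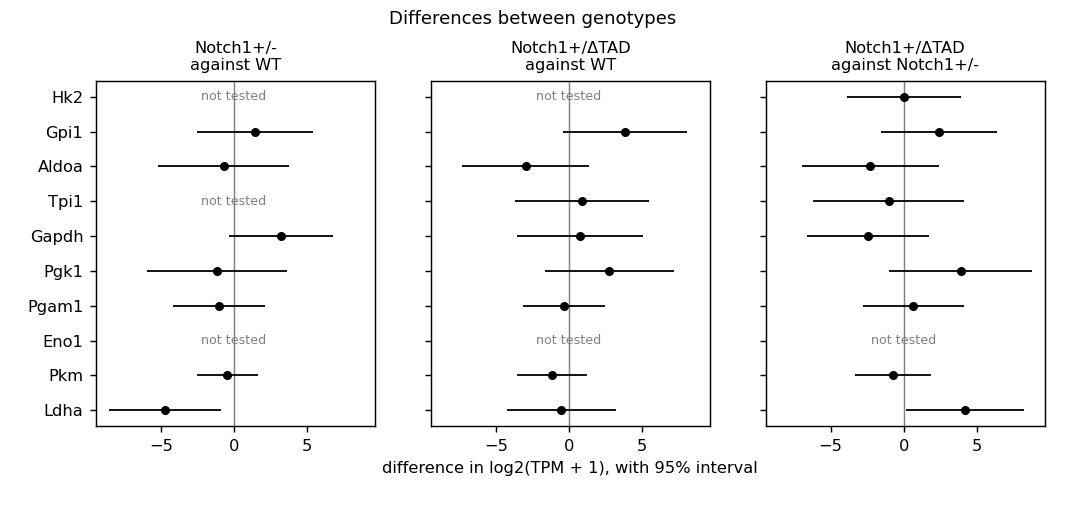
Difference in log2(TPM + 1) of each tested member between genotypes, with points for the difference and bars for its 95% interval, in 1 panel for each comparison. All intervals cross 0 except those of Ldha in both comparisons with Notch1+/-, at -4.74 against WT and 4.24 for Notch1+/ΔTAD over Notch1+/-.

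Genes around the route were read from 5 lists. Other isoenzymes and regulators of glycolysis were mostly not listed, with 15 of 27 at 0 in all 13 libraries, among them the tissue-restricted Pgk2, Pgam2, Eno2, Eno3, Pklr, and Ldhc. Of the 3 phosphofructokinase genes, Pfkl was above 0 in 8 libraries (up to 79.2 TPM), Pfkp in 6 (up to 94.9 TPM), and Pfkm in 2 (up to 112 TPM). Hk1, the hexokinase of most tissues, was above 0 in 8 libraries, up to 57.8 TPM, and Ldhb, the other lactate dehydrogenase subunit, in 3. These 2 and the phosphofructokinase genes were chosen for naming after their values were seen. The list had 2, 2, and 4 genes tested in Notch1+/ΔTAD against WT, Notch1+/- against WT, and between the mutants. It had 0 at an unadjusted p under 0.05, against 5.00%, 5.35%, and 5.33% of all genes. Its smallest p against WT belonged to Pfkl in Notch1+/ΔTAD, with a log2 difference of 2.47 (SE 1.78, limma adjusted p = 0.972), and to Eno1b in Notch1+/-, with -2.81 (SE 1.90, limma adjusted p = 0.978). Pfkl was above 0 in 2 WT libraries and in all 3 Notch1+/ΔTAD libraries, so it passed the filter only with the latter. Among 9 glucose and lactate transporters, 3 were at 0 in all libraries and only 1 was tested in any comparison. Slc2a1 and Slc2a3, the glucose transporters GLUT1 and GLUT3, also named after their values were seen, were above 0 in 1 and 3 libraries.

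The pentose phosphate pathway, which branches from the glycolytic intermediate glucose-6-phosphate to make NADPH and ribose, was better covered. All 8 of its genes were listed in at least 1 library. Tkt, transketolase, was at 66.1 to 380 TPM and Pgls, the lactonase, at 5.73 to 193 TPM, both in all 13 libraries. Taldo1, transaldolase, was listed at 0 in 3 of 5 WT libraries and at 415 to 1132 TPM in all 3 Notch1+/ΔTAD libraries, with a log2 difference of 5.65 (SE 2.30, limma adjusted p = 0.923). Its other 2 WT libraries reached 704 TPM, so the groups overlapped. Those 2 libraries would not have met the filter, so Taldo1 was tested only through the Notch1+/ΔTAD libraries, where it was high. In Notch1+/- it was above 0 in 4 libraries, up to 830 TPM, and its median of 542 TPM lay beside 545 TPM in Notch1+/ΔTAD. Rpia, ribose-5-phosphate isomerase, was at 3.898 to 92.4 TPM in all Notch1+/- libraries and at 0 to 16.9 TPM in WT, a log2 difference of 3.50 (SE 1.498, limma adjusted p = 0.887). Against WT, Rpia passed the filter only with the Notch1+/- libraries, where it was mostly higher. It was listed at 0 in all 3 Notch1+/ΔTAD libraries, so it passed the filter between the mutants only through libraries of the other genotypes. Its groups did not overlap there, as for 3.06% of all genes tested, and with depth unknown a 0 may be a miss. At an unadjusted p under 0.05 stood 1 of 5, 1 of 4, and 1 of 7 tested genes of the list in the 3 comparisons. The shares over all genes were 5.00%, 5.35%, and 5.33%, and 0 genes of the list passed the threshold.

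Of 27 genes for pyruvate entry and the citric acid cycle, Pdk4, a kinase that restrains pyruvate dehydrogenase, was at 0 in all libraries. The list had 18, 14, and 22 genes tested, with 0, 0, and 2 at an unadjusted p under 0.05. The shares over all genes were 5.00%, 5.35%, and 5.33%, and 0 genes of the list passed the threshold. Its smallest p against WT belonged to Mpc2, a subunit of the mitochondrial pyruvate carrier, in Notch1+/ΔTAD (log2 difference 4.52, SE 2.11, limma adjusted p = 0.952) and to Idh3g, a subunit of isocitrate dehydrogenase, in Notch1+/- (3.32, SE 1.97, limma adjusted p = 0.969). Mpc2 was above 0 in 1 WT library, at 151 TPM, and at 34.1 to 146 TPM in all 3 Notch1+/ΔTAD libraries, so the groups overlapped. It passed the filter only with the Notch1+/ΔTAD libraries, where it was mostly higher. Of 10 transcriptional regulators of glycolysis, 6, 3, and 7 were tested and 0 were at an unadjusted p under 0.05. Among these, Arnt, the partner of HIF-1α, had the smallest p in Notch1+/ΔTAD against WT (2.97, SE 1.55, limma adjusted p = 0.952) and Mxi1, a MYC antagonist, in Notch1+/- against WT (-1.84, SE 1.75, limma adjusted p = 0.993). The 12 proliferation genes summed to 2002 to 3165 TPM in WT, 2230 to 2955 in Notch1+/-, and 2468 to 3169 in Notch1+/ΔTAD, and the ranges of the 3 genotypes overlapped. At an unadjusted p under 0.05 stood 1 of 10, 0 of 10, and 0 of 11 tested genes of that list. The shares over all genes were those given above, and 0 genes of the list passed the threshold. The 1 gene at that unadjusted p, named after its values were seen, was Mcm3, a subunit of the replicative helicase. It was at 264 to 532 TPM in WT, 213 to 551 in Notch1+/-, and 31.4 to 184 in Notch1+/ΔTAD (log2 difference from WT -1.96, SE 0.84, limma adjusted p = 0.943). Notch1+/ΔTAD did not overlap either group, as for 3.12% of all genes tested against WT and 3.06% against Notch1+/-. Of the 10 list genes tested against WT, 6 had higher and 4 lower log2(TPM + 1) means in Notch1+/ΔTAD. Their median log2 difference was 0.41.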

How the data were processed

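QuantSeq 3′ RNA-Seq libraries of CLPs, which keep strand, were prepared in 1 batch. The authors trimmed the reads, aligned them to mm10 with STAR in RNA-Seq Alignment, and deposited TPM in 2 tables, 1 per mutant beside WT, with identical WT columns that sum to 1000000. Which tool and annotation gave the TPM is not given in the sources used here. TPM divide by transcript length, whereas 3′ tags hardly depend on it, so levels of different genes are only roughly comparable. Read counts were not analysed here, so the authors' count model was not run, and precision rests on the spread between libraries, sorted from separate mice per the study's methods.

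Values were transformed to log2(TPM + 1), which understates changes of low genes, and fitted with limma 3.58.1 in R 4.3.3 (eBayes with trend, 2-sided, Benjamini-Hochberg over all tested genes, threshold 0.05). Genes were kept where 1 TPM was reached by 3 libraries, or by 5 for Notch1+/- against WT, the size of the smaller group. Alternatives were pseudocounts of 0.1 and 10, no filter, quantile normalization, median-ratio scaling, scaling to Eef1a1, eBayes without trend, an unadjusted threshold, library numbers 1 to 9 against 10 to 14 as a covariate, and leaving out each library. Annotation was GENCODE M21 on GRCm38, and shared windows were exact matches to transcripts of other gene names among the 141767 searched. All 10 members are named. Of the lists, genes at 1 TPM or more in all libraries and those with the smallest p against WT were named, with exceptions stated. The members and lists were chosen with earlier results of these data known.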

Additional observations from a re-analysis of the deposited data

Results flagged for a closer look

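Of 19 groups of 5 values of a member within a genotype on the log2(TPM + 1) scale, 5 held a library whose gap to the nearest other library, as a share of the whole range, was above Dixon's critical value of 0.71. By chance about 1 in 20 groups, or 0.95 of the 19, would hold such a library, and because values at 0 make up much of each group, the assumption of a smooth distribution behind that share is not met. Ldha was at 1.26 TPM in WT library 1, the lowest of its group, with a share of 0.715. Eno1 was at 189 TPM in Notch1+/- library 13 and at 0 in the other 4. Tpi1 was at 366 TPM in WT library 1 and at 0 in the other 4 WT libraries. Pgam1 was listed at 0 in Notch1+/- library 6, the lowest of its group. Hk2 was at 45.6 TPM in WT library 10, the highest of its group. The Notch1+/ΔTAD group, with 3 libraries, was too small for this check.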

How the results depend on the processing

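No paired analysis was possible because library numbers are not shared between genotypes. The 33 results had 606 values under alternatives, of which 22, all of single members, turned direction and 8, all counts, rose from 0. The other 576 kept direction and side of the threshold, or, for medians of the members, moved by less than the spread between libraries, which allowed a change of sign. None of the 435 values for single members passed the threshold, and the smallest adjusted p was 0.489, for Ldha in Notch1+/- against WT with 1 library left out. An unadjusted p under 0.05 admits more by construction. In Notch1+/ΔTAD against WT, 237 of 4737 genes and 0 of 8 members stood there. The counts were 170 of 3178 genes and 1 of 7 members in Notch1+/- against WT, and 335 of 6281 genes and 1 of 9 members between the mutants. eBayes without trend gave 15, 2, and 3 genes, and the cause was not tested. For Ldha between the mutants, the unadjusted p was not under 0.05 with a pseudocount of 10, quantile normalization, or scaling to Eef1a1, or without library 4, 5, 6, 7, or 14. In Notch1+/ΔTAD against WT the count rose to 1 of 7 members, Gpi1, without WT library 1, beside 249 of 4286 genes. Without WT library 10 it was 1 of 8 members, again Gpi1, beside 241 of 4394 genes. In Notch1+/- against WT it rose to 2 of 7 members, Ldha and Gapdh, with scaling to Eef1a1, beside 196 of 3178 genes. For the same 2 members it was 2 of 7 without trend, beside 175 of 3178 genes, and 2 of 6 without WT library 1, beside 121 of 2753 genes.

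A pseudocount of 10 turned Tpi1 in Notch1+/ΔTAD against WT to -0.15. Hk2 between the mutants turned to -0.36 with a pseudocount of 0.1, -0.63 with quantile normalization, -0.035 with median-ratio scaling, and -0.36 when scaled to Eef1a1. With each library left out in turn, log2 differences of Notch1+/ΔTAD from WT ran from -1.84 to 0.77 for Ldha, -1.29 to 1.17 for Pgam1, and -1.19 to 1.80 for Gapdh. For Notch1+/- from WT they ran from -2.59 to 0.083 for Pgk1, -0.91 to 0.26 for Pkm, and -1.63 to 0.50 for Pgam1, and between the mutants from -1.92 to 1.14 for Hk2, -2.13 to 0.39 for Tpi1, -0.83 to 2.17 for Pgam1, and -1.51 to 0.19 for Pkm. Ldha in Notch1+/- against WT kept its direction, from -6.07 to -4.16 over left-out libraries and from -6.60 to -3.05 over the other settings. Depth is unknown, so no limit can be set on a value listed at 0, and 3 Notch1+/ΔTAD libraries limit the precision of both comparisons that use them.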
